A study of Homo sapiens with 25 samples.

Results

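The 10 genes described here are the NR4A nuclear receptor genes NR4A1, NR4A2 and NR4A3 and the immediate early genes FOS, FOSB, FOSL1, JUN, JUNB, EGR1 and IER2. They were chosen by name among the 59427 gene names of an expression table, and all 10 were found. The choice was made with a result in view, the rise of NR4A2 in A549 cells with both antisense oligonucleotides (ASOs) against candidate 42. Those A549 comparisons with control are therefore given as values without a test. So is NR4A2 in every comparison whose fit uses the A549 control or candidate 42 libraries, since they chose it. In none of the comparisons can loss of the target RNA and other effects of an oligonucleotide be told apart. The study sequenced RNA from 25 libraries of A549, a lung adenocarcinoma line, and NCI-H460, a large cell lung carcinoma line, 24 h after transfection with an ASO at 25 nM. In each line the 5 groups received the commercial neutral control ASO Control A, ASO3 or ASO5 against the long noncoding RNA candidate 42 (also called CHiLL1), or ASO1 or ASO3 against candidate 240 (CHiLL2). Each A549 group held 3 libraries, numbered as replicates 3, 4 and 5, and each NCI-H460 group held 2, numbered 1 and 2. The labels do not say that replicates came from separate cultures, so p-values measure the spread between these libraries, which may be technical.

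NR4A1 (Nur77), NR4A2 (Nurr1) and NR4A3 (Nor1) are orphan nuclear receptors that bind DNA as monomers or dimers and act without a classical ligand. They are regulated mostly by how much of them a cell makes. FOS and JUN family proteins pair into the transcription factor AP-1, EGR1 is a zinc finger transcription factor, and IER2 is a small nuclear regulator. These genes are transcribed soon after growth factor, stress or cAMP signals through factors already present in the cell, and their transcripts are short-lived. In lung cancer cells, signalling from mutant RAS or growth factor receptors through ERK is a known source of their expression.

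Levels are transcripts per 1000000 (TPM) on the authors' rescaled TPM scale, which corrects for transcript length. Read depth is not given by such values, and in bulk RNA a change in every cell and a change in the share of cells that make a transcript cannot be told apart. Column totals ran from 924350 to 1179224, and mitochondrial transcripts took 6.48% to 11.1% of the total. The replicate 3 libraries of A549 stood apart. Their column totals were 1048732 to 1179224, against 924350 to 1004987 in replicates 4 and 5, and their mitochondrial share was 6.48% to 8.90%, against 8.67% to 11.1%. On the leading principal component of the A549 libraries (24.6% of the variance), candidate 240 ASO3 replicate 3 lay at 71.9 and every other library between -25.5 and 20.9. In NCI-H460 the candidate 42 ASO3 libraries lay at 72.2 and 38.7 on that component (48.2% of the variance), and the other 8 between -28.5 and 3.06. The summed level of 5 epithelial markers (KRT8, KRT18, KRT19, EPCAM, CDH1) was 4893 to 7895 TPM in A549 and 2645 to 4230 in NCI-H460, where only 3 of the 5 averaged at least 1 TPM. Of 4 lung lineage markers (NKX2-1, SFTPB, SFTPC, NAPSA) 1 averaged at least 1 TPM in A549, and 0 did so in NCI-H460. The epithelial sum differed from controls without overlap in some groups. In A549 it was 6684 to 7723 TPM in controls, 5446 to 6253 with candidate 42 ASO3 and 4893 to 6110 with candidate 240 ASO3. It overlapped controls with 42 ASO5 (7540 to 7895) and 240 ASO1 (7342 to 7701). In NCI-H460 it was 3210 to 3280 in controls. It lay above them with 240 ASO3 (4086 to 4230), 42 ASO5 (3548 to 3891) and 240 ASO1 (3428 to 3499). With 42 ASO3 (2645 to 3623) it overlapped them. In the NCI-H460 comparisons where it lay above, 46.9% to 60.6% of all genes did not overlap. The part of this sum in the results below was not tested. Of 6 leukocyte markers, 2 averaged at least 1 TPM in A549 and 1 in NCI-H460, with sums of 7.50 to 29.5 TPM, while CD3E and MS4A1 were listed at 0 in every library. Of 6 fibroblast markers, 1 averaged at least 1 TPM in A549 and 3 in NCI-H460 (sums of 2.81 to 10.7 TPM), and 0 of 5 endothelial markers did in either line. The labels pair no gene name with the candidates. AC107959.3, taken here as candidate 42, stood in A549 at 8.55% of control with ASO3 and 45% with ASO5, and in NCI-H460 at 30.3% and 95.5%. With the candidate 240 ASOs it stood at 80.7% (ASO1) and 190% (ASO3) of control in A549, and at 252% and 340% in NCI-H460. AC015712.6, taken as candidate 240, averaged under 1 TPM and stood in A549 at 4.44% with ASO3 and 53.4% with ASO1, and in NCI-H460 at 59.6% and 111%. With the candidate 42 ASOs it stood at 95.1% (ASO3) and 158% (ASO5) in A549, and at 193% and 84.6% in NCI-H460. The NCI-H460 control libraries held only 0.049 to 0.107 TPM of AC015712.6, and the libraries of all 4 ASOs overlapped them (0.017 to 0.076 TPM with candidate 240 ASO3). No change can be read from its NCI-H460 percentages.

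The promoter windows below are those of 5 of the genes described afterwards, which differ in short motifs of known inducible factors. Each is the 250 bases before the RefSeq start (GRCh38.p14), printed 5′ to 3′ on the gene's strand. Capitals mark matches to TGACGT, the core of a cAMP response element, on either strand, and to the CArG box bound by serum response factor.

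NR4A1, chr12:52037465-52037714, plus strand: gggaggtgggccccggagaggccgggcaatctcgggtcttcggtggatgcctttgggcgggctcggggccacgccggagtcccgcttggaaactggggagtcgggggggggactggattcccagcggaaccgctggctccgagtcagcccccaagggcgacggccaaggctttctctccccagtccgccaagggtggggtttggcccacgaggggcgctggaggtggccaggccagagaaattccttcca
NR4A3, chr9:99821635-99821884, plus strand: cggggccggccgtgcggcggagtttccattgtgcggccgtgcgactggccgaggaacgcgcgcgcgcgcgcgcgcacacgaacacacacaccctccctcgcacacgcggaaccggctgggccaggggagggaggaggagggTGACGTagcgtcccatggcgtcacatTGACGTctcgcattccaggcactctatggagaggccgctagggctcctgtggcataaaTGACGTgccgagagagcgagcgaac
FOS, chr14:75278578-75278827, plus strand: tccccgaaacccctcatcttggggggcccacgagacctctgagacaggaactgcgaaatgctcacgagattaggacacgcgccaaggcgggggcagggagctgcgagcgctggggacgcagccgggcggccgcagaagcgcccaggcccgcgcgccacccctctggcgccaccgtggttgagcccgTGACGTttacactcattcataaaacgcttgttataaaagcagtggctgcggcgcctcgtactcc
JUNB, chr19:12791236-12791485, plus strand: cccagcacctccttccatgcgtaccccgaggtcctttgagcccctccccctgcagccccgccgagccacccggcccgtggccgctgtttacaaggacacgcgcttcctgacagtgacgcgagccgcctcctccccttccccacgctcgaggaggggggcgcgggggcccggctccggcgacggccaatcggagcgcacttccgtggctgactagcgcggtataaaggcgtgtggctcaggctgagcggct
EGR1, chr5:138465229-138465478, plus strand: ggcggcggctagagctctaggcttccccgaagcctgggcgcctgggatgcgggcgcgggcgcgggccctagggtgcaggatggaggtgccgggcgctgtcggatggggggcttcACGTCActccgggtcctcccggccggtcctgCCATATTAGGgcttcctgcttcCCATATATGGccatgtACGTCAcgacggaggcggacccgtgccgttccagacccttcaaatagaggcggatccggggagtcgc

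Windows were found for 8 of the 10 genes, all but NR4A2 and FOSL1, with 2 start sites for NR4A1. The NR4A3 window held 3 TGACGT cores, beginning 109, 83 and 25 bases before the start. FOS and FOSB held 1 each, 64 and 60 bases before it. EGR1 held 2, both as the reverse complement, with 2 CArG boxes between them. Of 35116 RefSeq windows of this length, 7.1% held TGACGT and 1.16% a CArG box. Neither was found in the windows of NR4A1, JUN, JUNB or IER2. Any further start sites of these genes, such as ones inside NR4A1, were not searched. The whole element TGACGTCA (1.65% of windows, each also a TGACGT match), the AP-1 site TGANTCA (6.57%) and the NR4A monomer site AAAGGTCA (1.05%), searched on both strands, were in none of the 9 windows. A match is a description of letters and was not tested as a binding site. Sites that vary from these letters were not searched, so a window without a match may still hold one.

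**Figure D1:**
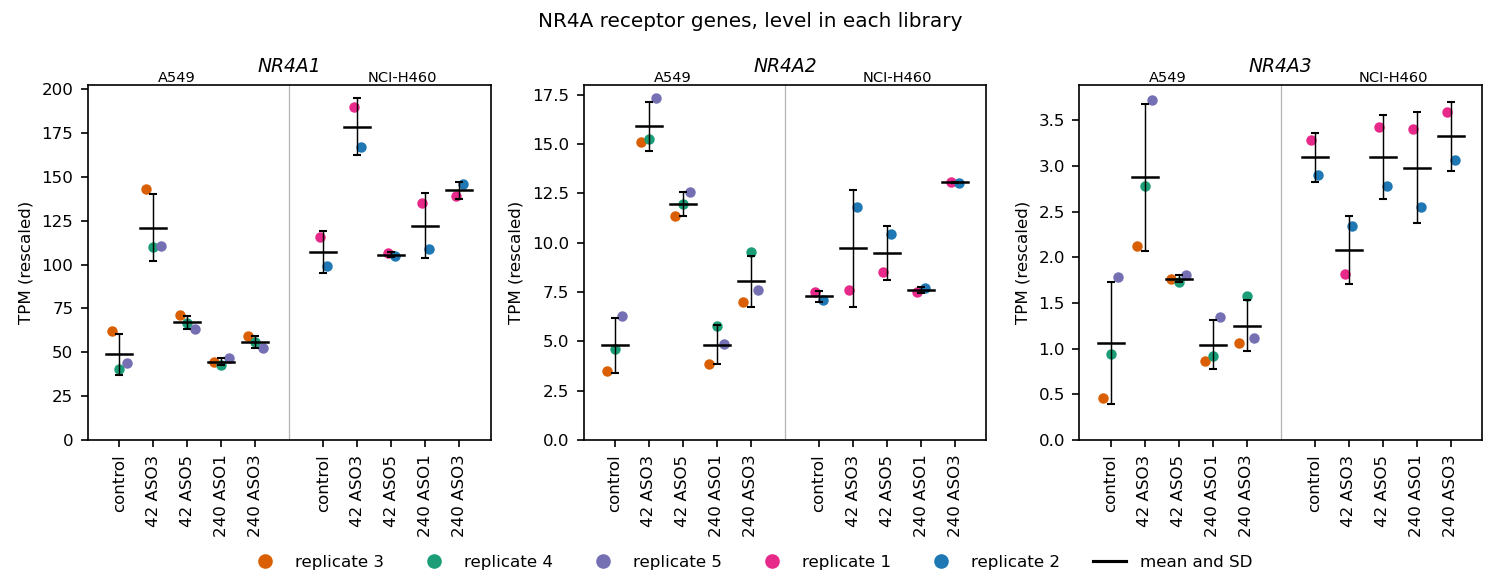
Level of NR4A1, NR4A2 and NR4A3 in rescaled TPM (y axis) in each of the 25 libraries, by ASO group and line (x axis). Points are libraries coloured by replicate number, bars are means with SD (n = 3 in A549, n = 2 in NCI-H460). In A549 the NR4A2 libraries with candidate 42 ASOs (11.4 to 17.3 TPM) all lie above the controls (3.49 to 6.26 TPM).

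Under the control ASO the 10 genes covered a wide range of levels. In A549 IER2 was highest at 142 ± 39.9 TPM (SD, n = 3), followed by JUNB (101 ± 31.9), FOS (81.9 ± 13.9), NR4A1 (48.8 ± 11.7), JUN (21.9 ± 5.54), FOSL1 (21.1 ± 4.58), EGR1 (13 ± 8.57), NR4A2 (4.79 ± 1.39), FOSB (1.35 ± 0.747) and NR4A3 (1.06 ± 0.668). The libraries of neighbours in this order overlapped, except between FOS and NR4A1, NR4A1 and JUN, and NR4A2 and FOSB. In NCI-H460 NR4A1 was highest at 107 ± 12 TPM (SD, n = 2), ahead of JUNB (85.2 ± 10.5) and IER2 (81.0 ± 9.75), whose libraries overlapped. FOSL1 (25.7 ± 0.833) and FOS (20.9 ± 6.75) also overlapped. EGR1 (12 ± 2.35), JUN (8.81 ± 0.706), NR4A2 (7.29 ± 0.273), NR4A3 (3.09 ± 0.267) and FOSB (0.486 ± 0.160) followed without overlap.

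Under the control ASO the lines differed in 5 of the 9 genes tested, close to the 54.9% of all genes that passed limma. FOS was higher in A549 by a log2 difference of 1.97 (SE 0.31, limma on log2(TPM + 0.5), Benjamini-Hochberg adjusted p = 2.34e-05), and JUN by 1.23 (SE 0.28, adjusted p = 0.000895). NR4A1 was lower in A549 by -1.15 (SE 0.15, adjusted p = 2.36e-06) and NR4A3 by -1.29 (SE 0.28, adjusted p = 0.000568). IER2 was higher in A549 by 0.77 (adjusted p = 0.00663), a call lost without NCI-H460 control replicate 2 (0.65, adjusted p = 0.0772) or with median-of-ratios scaling (0.55, adjusted p = 0.0731). FOSB (0.84), FOSL1 (-0.30), JUNB (0.20) and EGR1 (-0.11) did not pass, although FOSL1 did with A549 replicates 4 and 5 only (-0.46, adjusted p = 0.00531). NR4A2 differed by -0.59 and is given without a test, since its A549 controls entered the comparison that chose it. The libraries of the lines did not overlap for 7 of the 10 genes, where 68.7% of 14769 genes did not. The median of all genes was itself 0.21 higher in A549, and 5382 genes passed as higher and 2719 as lower (4043 and 3861 with median-of-ratios scaling). The lines carry different replicate numbers, so line and experiment cannot be told apart.

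With candidate 42 ASOs in A549, all 3 NR4A genes had a higher mean than with the control ASO, and more so with ASO3 than with ASO5. NR4A2 (chr2:156324432-156342348 on GRCh38, minus strand), the member that chose the set, stood at 3.49, 4.62 and 6.26 TPM in control replicates 3, 4 and 5. It stood at 15.1, 15.3 and 17.3 TPM with ASO3 and at 11.4, 12 and 12.6 TPM with ASO5. Each ASO3 library lay above each ASO5 library, and those above each control. The means were 332% of control with ASO3 and 250% with ASO5, log2 fold changes of 1.66 and 1.27. NR4A1 (chr12:52022832-52059507, plus strand) stood at 62.2, 40.6 and 43.7 TPM in controls, at 143, 110 and 110 TPM with ASO3 and at 71.2, 66.5 and 63.4 TPM with ASO5. Its ASO3 libraries lay well above all others, and the lowest ASO5 library lay just above the highest control. Its log2 fold changes were 1.32 and 0.48. NR4A3 (chr9:99821855-99866891, plus strand) was low, at 0.463, 0.945 and 1.78 TPM in controls, 2.13, 2.78 and 3.72 TPM with ASO3 and 1.76, 1.73 and 1.80 TPM with ASO5. Only its ASO3 libraries cleared the controls, and its log2 fold changes were 1.17 and 0.62. Without the replicate 3 libraries the log2 fold changes with ASO3 were 1.38 for NR4A1, 1.51 for NR4A2 and 1.04 for NR4A3, and with ASO5 0.62, 1.12 and 0.32.

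Among the FOS, JUN, EGR1 and IER2 genes only FOSL1 had a positive value with both ASOs, and the others were negative with both. FOS, with 97.8, 72.2 and 75.7 TPM in controls, stood at 96.1, 46.8 and 48.4 TPM with ASO3 and at 70.5, 39.9 and 36.4 TPM with ASO5. Its ASO5 libraries all lay below the controls, while ASO3 replicate 3 lay among them. The log2 fold changes of FOS were -0.43 and -0.79. Those of EGR1 were -0.46 and -0.73, of JUN -0.47 and -0.17, of JUNB -0.07 and -0.44, of FOSB -0.25 and -0.12, of IER2 -0.18 and -0.05 and of FOSL1 0.09 and 0.32, and for these 6 genes the ASO and control libraries overlapped. In all, 3 of the 10 genes did not overlap with controls under ASO3 (27.6% of 14740 genes did not) and 3 under ASO5 (22.2%). These counts describe the comparison that chose the set and support nothing.

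ASO3 and ASO5 against candidate 42 were then compared with each other in A549. This contrast leaves out the control libraries, although they share in the estimate of spread. NR4A1 was lower with ASO5 than with ASO3 by a log2 difference of -0.84 (SE 0.15, limma adjusted p = 0.00219), in all 3 libraries against all 3, and this held without replicate 3 (-0.76). NR4A3 differed by -0.55 (-1.17 to 0.07, adjusted p = 0.269) and did not pass, although its libraries did not overlap. NR4A2, given without a test, differed by -0.39. The other 7 genes lay between -0.37 (JUNB) and 0.29 (JUN) with adjusted p of 0.428 or more. Thus 1 of the 9 genes other than NR4A2 passed, beside 10.7% of all genes, and 2 did not overlap, beside 34.4%. The means of AC107959.3 in these groups were 0.650 TPM with ASO3 and 3.42 TPM with ASO5. Whether the difference in NR4A1 goes with the level of that RNA was not tested.

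**Figure D2:**
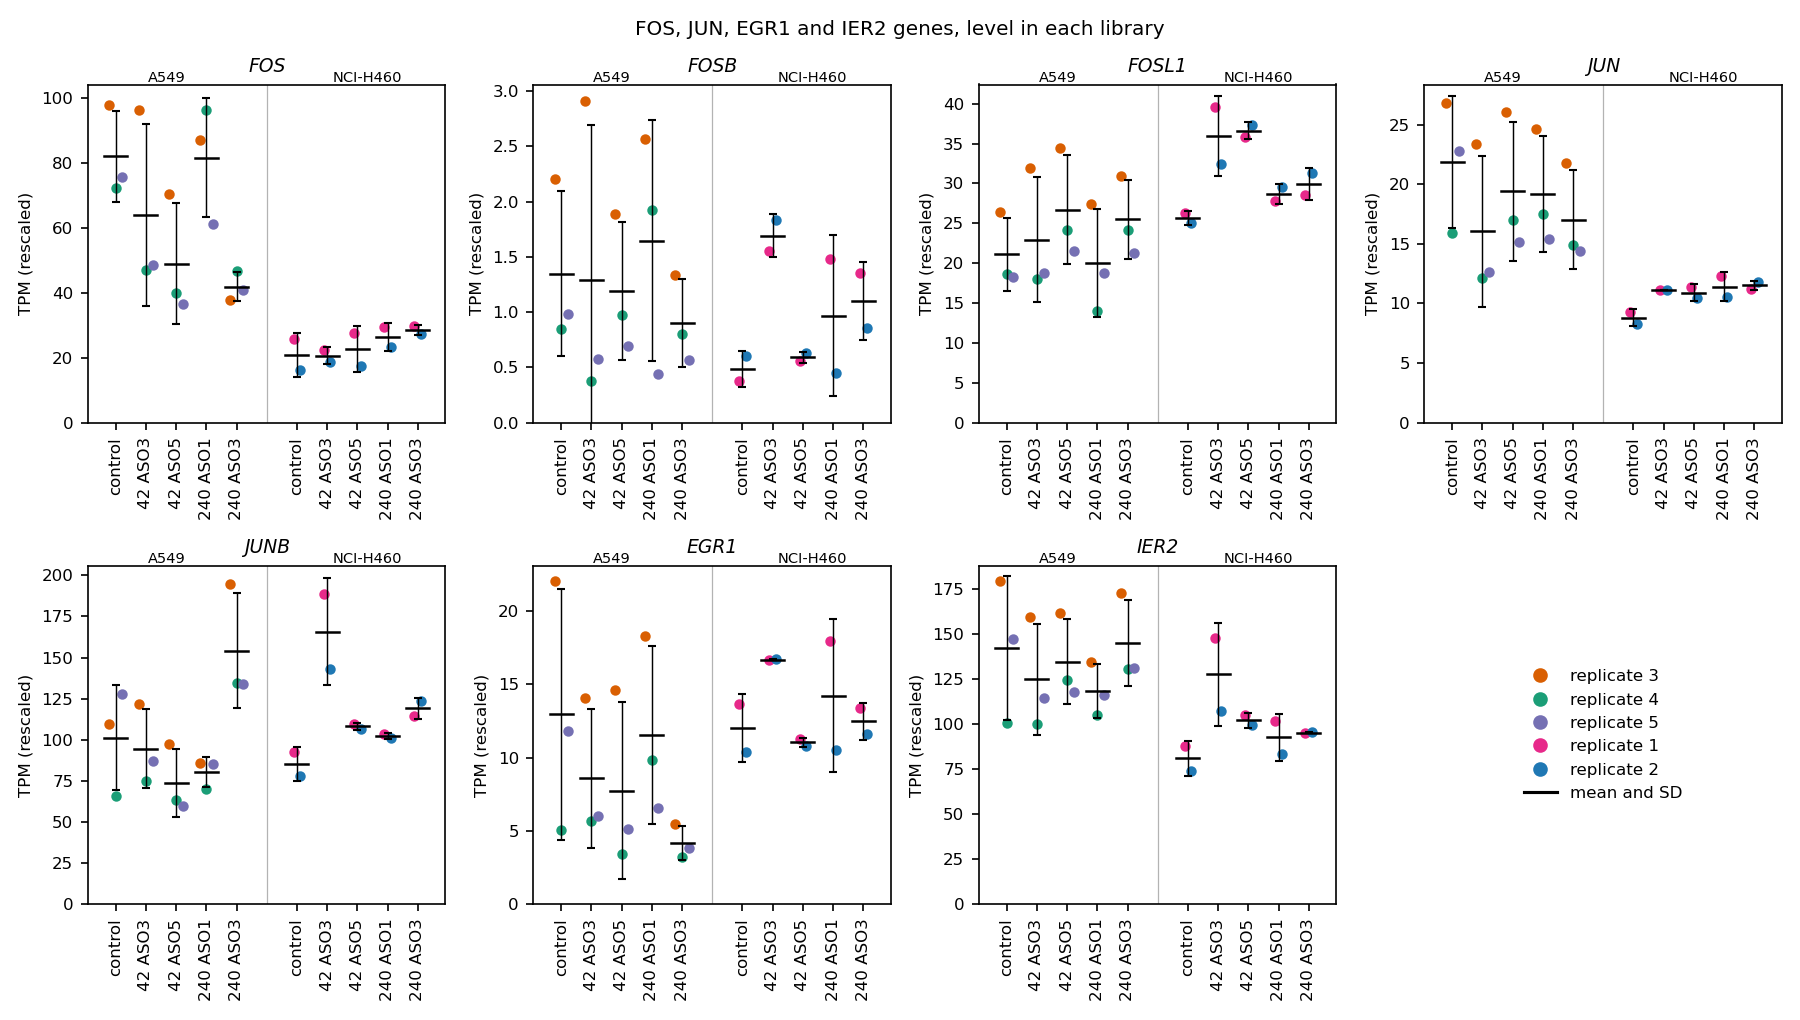
Level of the FOS, JUN, EGR1 and IER2 genes in rescaled TPM (y axis) in each of the 25 libraries, by ASO group and line (x axis), drawn as points with mean and SD bars. FOS in A549 with candidate 240 ASO3 (37.8 to 46.6 TPM) lies below the controls (72.2 to 97.8 TPM), and JUNB there (134 to 194 TPM) lies above them (66 to 128 TPM).

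With candidate 240 ASO3 in A549 FOS fell, and NR4A2 is described without a test. NR4A2 stood at 7.02, 9.51 and 7.58 TPM in replicates 3, 4 and 5, all above the highest control library at 6.26 TPM. Its log2 fold change was 0.71, and its mean 168% of control. FOS stood at 37.8, 46.6 and 40.9 TPM, all below the lowest control at 72.2 TPM, with a log2 fold change of -0.95 (SE 0.29, 95% interval -1.57 to -0.34, limma adjusted p = 0.0400). JUNB, at 194, 134 and 134 TPM against 110, 66 and 128 TPM in controls, was higher in every library by a log2 fold change of 0.64, which passed only with replicate number as a block (adjusted p = 0.127, and 0.0153 with the block). EGR1 stood at 5.48, 3.20 and 3.83 TPM against 22.1, 5.04 and 11.8 TPM in controls. Each library lay below its same-numbered control, but the groups overlapped at 5.48 and 5.04 TPM, and its log2 fold change of -1.33 also passed only with the block (adjusted p = 0.143, and 0.00365 with the block). NR4A1 (0.22), NR4A3 (0.24), FOSL1 (0.27), IER2 (0.05), JUN (-0.34) and FOSB (-0.36) did not pass.

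Thus 1 of the 9 genes other than NR4A2 passed, beside 13.8% of all genes, or 3 with the block, beside 25.1%, and 2 did not overlap with controls, beside 25.5%. The call of FOS was lost without any 1 of the 6 libraries (-0.82 to -1.04, adjusted p = 0.0626 to 0.106), without the filter on low values (adjusted p = 0.109) and without the variance trend (adjusted p = 0.0519). With replicates 4 and 5 alone, FOS was at -0.75 and NR4A2 at 0.61, and NR4A1 passed (0.36, adjusted p = 0.00816), as it did without control replicate 3 (0.40, adjusted p = 0.0404).

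With candidate 240 ASO1 in A549 none of the 9 genes tested passed. NR4A2 stood at 3.85, 5.78 and 4.89 TPM and FOS at 87.1, 96.3 and 61.2 TPM, overlapping the control libraries. Their log2 fold changes were 0.03 for NR4A2 and -0.02 (95% interval -0.63 to 0.60) for FOS. The other 8 genes lay between -0.28 (JUNB) and 0.12 (FOSB). By limma 0 of the 9 genes passed, as did 0% of all genes, with 0 of the 9 and 267 of all genes at an unadjusted p under 0.05. The libraries of all 10 overlapped with controls, where 5.25% of all genes did not.

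A direct contrast of the candidate 240 ASOs in A549 called JUNB and FOS, in a fit that again took its spread from all 5 groups. JUNB was higher with ASO3 than with ASO1 by 0.92 (SE 0.26, limma adjusted p = 0.0266). FOS was lower by -0.94 (SE 0.29, adjusted p = 0.0384). NR4A2, given without a test from that fit, was higher by 0.68. Each of these 3 genes differed in 3 libraries against 3 without overlap. With the block NR4A1 (0.32, adjusted p = 0.159, and 0.0392 with the block), FOSL1 (0.37, adjusted p = 0.403, and 0.0295) and EGR1 (-1.28, adjusted p = 0.145, and 0.00419) passed too. So 3 of 10 passed, beside 16.7% of all genes, or 6 with the block, beside 29.9%, and 5 did not overlap, beside 32.8%. With 1 library left out NR4A2 lay at 0.54 to 0.81. When only the compared groups were fitted, which leaves out the libraries that chose it, NR4A2 did not pass (adjusted p = 0.0799). JUNB and FOS lost their calls without the filter on low values (adjusted p = 0.0758 and 0.107). JUNB also lost its call without any ASO1 library or ASO3 replicate 3 (0.74 to 0.97, adjusted p = 0.0516 to 0.0985). FOS lost its call without ASO1 replicate 3 or 4 or any ASO3 library (-0.80 to -1.02, adjusted p = 0.0592 to 0.141).

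**Figure D3:**
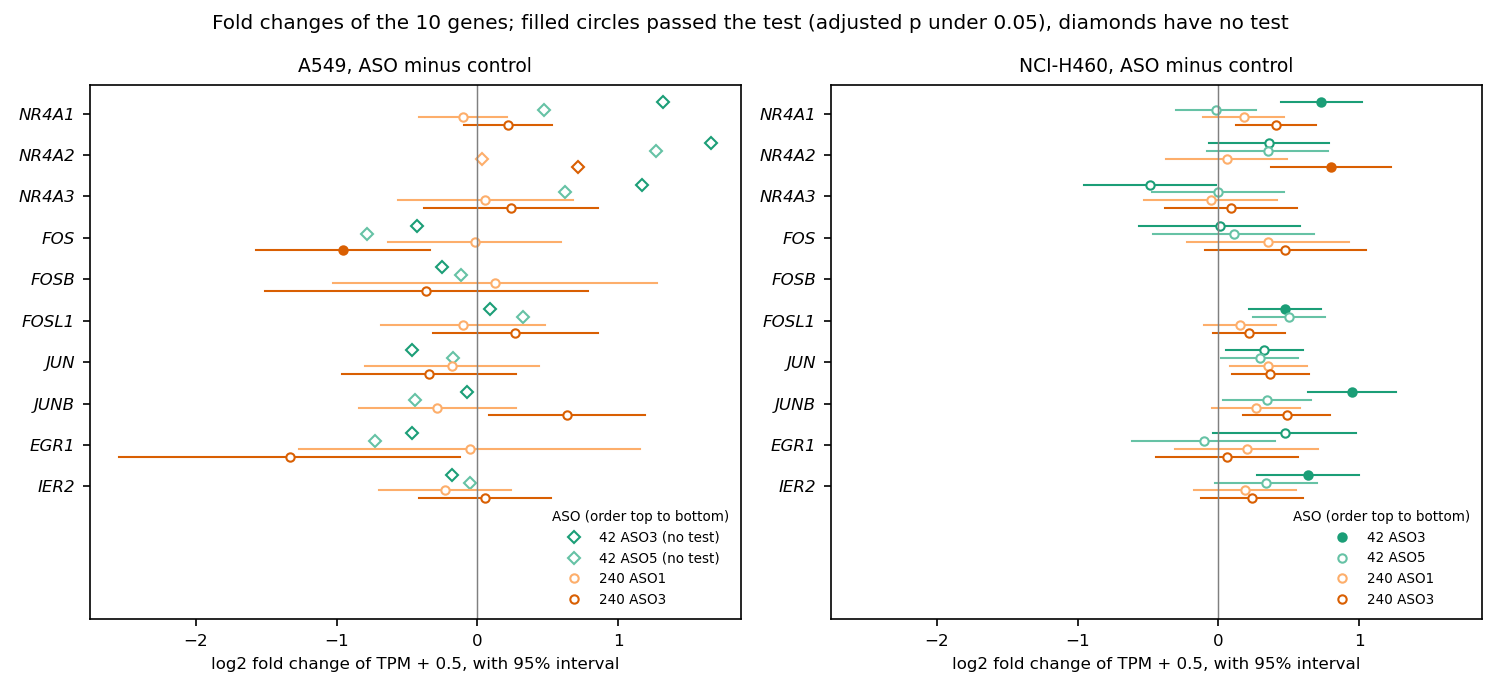
Log2 fold change of each gene against control (x axis, on the TPM + 0.5 scale) for the 4 ASOs in A549 and in NCI-H460. Circles carry 95% intervals, filled circles passed limma at an adjusted p under 0.05, and open diamonds are the A549 values of candidate 42 and of NR4A2, which have no test. NR4A2 with candidate 240 ASO3 is at 0.71 in A549 and 0.80 in NCI-H460, while FOS is at -0.95 and 0.48.

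In NCI-H460, NR4A1, JUNB, FOSL1 and IER2 rose with candidate 42 ASO3. NR4A1 stood at 190 and 167 TPM against 116 and 99.0 TPM in controls, a log2 fold change of 0.73 (SE 0.13, limma adjusted p = 0.00214). JUNB stood at 189 and 143 TPM against 92.6 and 77.8 TPM, a log2 fold change of 0.95 (SE 0.14, adjusted p = 0.00101). Both passed without any 1 of the 4 libraries. FOSL1, at 39.6 and 32.5 TPM against 26.3 and 25.1 TPM, rose by 0.47 (adjusted p = 0.00932), and IER2, at 148 and 107 TPM against 87.9 and 74.1 TPM, by 0.64 (adjusted p = 0.0113). Leaving out control replicate 2 ended the calls of FOSL1 (0.44, adjusted p = 0.0629) and IER2 (0.52, adjusted p = 0.0854), and leaving out ASO3 replicate 1 that of IER2 (0.41, adjusted p = 0.0595). FOSL1 also missed the threshold when only the compared groups were fitted (adjusted p = 0.0537), and IER2 without the filter on low values (adjusted p = 0.0515).

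NR4A2 behaved less evenly there, with 7.61 and 11.8 TPM against 7.48 and 7.09 TPM in controls. ASO3 replicate 1 lay beside the controls and replicate 2 above them, and the log2 fold change was 0.36 (95% interval -0.07 to 0.79, adjusted p = 0.145). Without replicate 1 of ASO3 it was 0.66 (adjusted p = 0.0122). NR4A3 had a lower mean, at 1.81 and 2.35 TPM against 3.28 and 2.90 TPM (-0.48, adjusted p = 0.0849), while in A549 its 3 libraries with this ASO lay above the controls. FOSB, at 1.55 and 1.83 TPM against 0.373 and 0.599 TPM, averaged under 1 TPM in this line and was left out, but passed when only the compared groups were fitted (1.16, adjusted p = 0.0415). EGR1 (0.47), JUN (0.32) and FOS (0.01) did not pass. The difference between the lines in response to candidate 42 was not tested, since the A549 values chose the set.

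So 4 of the 9 genes tested passed, all higher, in a comparison in which 46% of all genes passed, 13.2% as higher. The libraries of 8 of the 10 were higher and of 1 lower without overlap, where 74.8% of all genes did not overlap. The median of all genes was -0.20 in this comparison, with 1819 genes higher and 4513 lower. With median-of-ratios scaling that median was 0.01 and the split 3259 and 3156, and NR4A2 (0.57, adjusted p = 0.0257), JUN (0.54, adjusted p = 0.00800) and EGR1 (0.69, adjusted p = 0.0332) passed as well.

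Candidate 42 ASO5 in NCI-H460 gave smaller differences. NR4A1 stood at 107 and 105 TPM, within the controls (log2 fold change -0.02, 95% interval -0.30 to 0.27). NR4A2 stood at 8.49 and 10.4 TPM, above both controls, with a log2 fold change of 0.35 (-0.08 to 0.78, adjusted p = 0.419). FOSL1, at 35.8 and 37.4 TPM, had the largest value of the 9, 0.50 (0.25 to 0.76, adjusted p = 0.102). By limma 0 of the 9 passed, beside 0.508% of all genes. For 5 of the 10 the libraries lay above the controls, where 54.6% of all genes did not overlap and 29.1% lay above.

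NR4A2 rose with candidate 240 ASO3 in NCI-H460. NR4A2 stood at 13.1 and 13 TPM against 7.48 and 7.09 TPM in controls, 179% of control in mean level, with a log2 fold change of 0.80 (SE 0.19, 95% interval 0.37 to 1.23, limma adjusted p = 0.0445). The call was lost without any 1 of the 4 libraries (0.77 to 0.84, adjusted p = 0.122 to 0.235), and likewise without the filter on low values, with the same total in each library or without the variance trend (adjusted p = 0.0627 to 0.139). NR4A1, at 139 and 146 TPM, had a log2 fold change of 0.41 (adjusted p = 0.0925) and JUNB, at 115 and 123 TPM, of 0.48 (adjusted p = 0.0735). FOS stood at 29.7 and 27.4 TPM against 25.7 and 16.1 TPM in controls (0.48, adjusted p = 0.289). JUN (0.37), IER2 (0.24), FOSL1 (0.22), NR4A3 (0.09) and EGR1 (0.06) did not pass. Thus 1 of the 9 genes passed, beside 5.66% of all genes, and the libraries of 8 of the 10 lay above the controls, where 60.6% of genes did not overlap and 28% lay above.

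With candidate 240 ASO1 in NCI-H460, NR4A2 stood at 7.49 and 7.72 TPM, next to the controls (log2 fold change 0.06, 95% interval -0.37 to 0.49). Of the 9 genes tested, JUN and FOS were both at 0.35 and the others lower, and FOSB stood at 1.48 and 0.454 TPM against 0.373 and 0.599 TPM. By limma 0 of the 9 passed, as did 0% of all genes, with 1 of them and 493 of all genes at an unadjusted p under 0.05. The libraries of 4 of the 10 lay above the controls, where 46.9% of all genes did not overlap and 22.1% lay above.

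The responses of the lines to candidate 240 ASO3 were compared in a fit of all 25 libraries. For FOS the A549 response minus the NCI-H460 response was -1.43 (interval -2.35 to -0.51, adjusted p = 0.148, and 0.0222 with the replicate block), and for JUN -0.71 (adjusted p = 0.545, and 0.0445 with the block). In A549 the mean of FOS was 51.0% of control and in NCI-H460 136%. For NR4A2 it was -0.09, given without a test. By limma 0 of the 9 other genes passed, beside 1.21% of all genes, or 2 with the block, beside 3.62%. For ASO1 0 of the 9 passed, beside 0% of all genes, and the values ran from -0.55 (JUNB) to 0.11 (NR4A3).

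**Figure D4:**
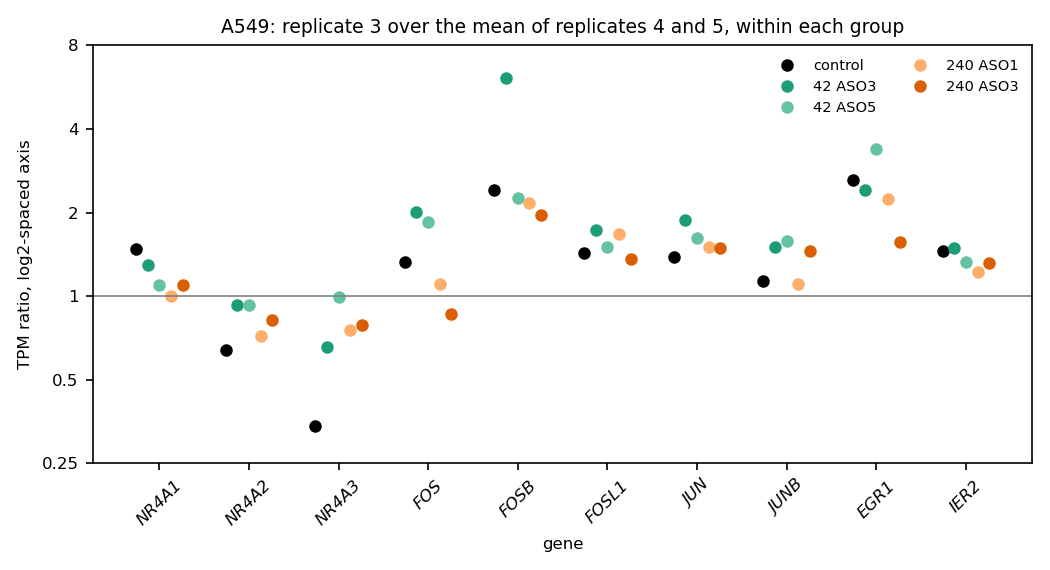
Ratio of the TPM level in replicate 3 to the mean of replicates 4 and 5 within each A549 group (y axis, spaced on a log2 scale) for each gene (x axis), with 1 point per group. FOSB, FOSL1, JUN, EGR1 and IER2 lie above 1 in all 5 groups, and NR4A2 and NR4A3 lie below 1 in all 5.

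Within A549 groups the 10 genes also differed by replicate number, in opposite directions. Replicate 3 was the highest of 3 libraries in 5 of 5 groups for FOSB, FOSL1, JUN, EGR1 and IER2, in 4 of 5 for NR4A1 and JUNB and in 3 of 5 for FOS. It was the lowest in 5 of 5 groups for NR4A2 and in 4 of 5 for NR4A3. The median ratio of replicate 3 to the mean of the others was 2.41 for EGR1, 2.26 for FOSB and 1.5 for JUN, and 0.821 for NR4A2 and 0.757 for NR4A3. After subtracting group means, JUN correlated with IER2 at r = 0.93 and with EGR1 at 0.91, and NR4A2 with NR4A3 at 0.81, but NR4A2 correlated with FOSL1 at -0.67 and NR4A1 with NR4A2 at -0.57 (15 libraries, a description that rests largely on replicate 3). NR4A2 and NR4A3 each had a negative r with NR4A1 and with the FOS, JUN, EGR1 and IER2 genes. The r was weak for JUNB (-0.17 with NR4A2 and -0.04 with NR4A3) and for FOS with NR4A2 (-0.19). What sets replicate 3 apart was not tested.

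The 5 genes whose levels most resembled NR4A2 over the 15 A549 libraries (Pearson r of log2(TPM + 0.5) over 5 groups, a description) were GPRC5A, an orphan receptor gene (r = 0.95), RTL5 (0.95), the microtubule protein gene MAP1A (0.95), GCH1, which makes the cofactor tetrahydrobiopterin (0.93), and the antiviral enzyme gene OAS1 (0.93). Over the 10 NCI-H460 libraries the same r were -0.42, 0.50, 0.40, 0.67 and 0.62. NR4A3 ranked at 11 in A549 (0.89) and NR4A1 at 93 (0.80). In NCI-H460 NR4A2 correlated with NR4A1 at 0.33 and with NR4A3 at 0.16. Groups with large differences dominate such values.

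Related genes were followed through 6 lists (other AP-1 genes, other immediate early genes, ERK feedback genes, upstream kinases and transcription factors, NR4A binding partners and AP-1 targets). The ERK feedback list held negative feedback genes and also other genes induced by ERK signalling, such as CCND1, ETV4 and ETV5. With candidate 240 ASO3 in A549, 2 of 11 other AP-1 genes rose, BATF2 (1.41, adjusted p = 0.000452) and MAFF (0.74, adjusted p = 0.0195). Among 35 other immediate early genes the antiproliferative gene BTG2 rose (0.75) and the repressor gene KLF10 fell (-0.52). Of 30 upstream genes ELK1, which partners serum response factor, fell by 1.26 on the log2 scale (adjusted p = 4.77e-06) and MRTFA, its actin-regulated coactivator, by 0.55, while RPS6KA1, a kinase downstream of ERK, rose by 0.55. Of 13 AP-1 targets the adhesion receptor gene CD44 fell by 1.26 and the EGFR ligand gene AREG by 0.77. None of 15 ERK feedback genes or 7 NR4A partners passed (0 each by limma). The list medians lay between -0.15 and 0.23, beside -0.01 for all genes. In all 9 of 111 related genes passed, beside 13.8% of all genes. That count was 8 to 17 with a library left out, 4 with the compared groups only and 24 with the block.

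In NCI-H460 with the same ASO, BTG2 rose by 1.04 (adjusted p = 0.00545), RPS6KA1 by 0.75 and JUND by 0.65, and ELK1 fell by 0.69 (adjusted p = 0.00446) and CD44 by 0.49. AREG rose there by 1.09, and its A549 response minus its NCI-H460 response was -1.86 (SE 0.20, limma adjusted p = 5.91e-05), although 0 of 117 related genes passed that comparison when only the compared groups were fitted. Of 36 other immediate early genes 3 rose and 2 fell, of 31 upstream genes 1 rose and 2 fell, of 13 AP-1 targets 4 rose and 1 fell, of 11 other AP-1 genes 1 rose, of 7 NR4A partners 1 fell (NCOR1, a corepressor gene, at -0.64), and 0 of 14 ERK feedback genes passed. List medians ran from -0.13 to 0.35, beside -0.03 for all genes. In all 15 of 112 related genes passed, beside 5.66% of all genes, but 0 did without control replicate 2, 1 without control replicate 1 or ASO3 replicate 2, and 6 without ASO3 replicate 1.

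With candidate 42 ASO3 in NCI-H460, upstream genes were mostly lower, with 17 of 31 falling and 3 rising and a list median of -0.76, beside -0.20 for all genes, of which 32.8% fell. They included the coactivator gene CREBBP (-1.65), the kinase gene RPS6KA2 (-1.61) and the transcription factor gene MEF2C (-1.49). Of 14 genes of the ERK feedback list 7 fell and 0 rose. Among them were SPRED1 (-1.27), the ERK phosphatase gene DUSP6 (-0.997) and, as a gene induced by ERK signalling, the cyclin gene CCND1 (-0.99). Other immediate early genes went both ways, with 10 of 36 rising, as CSRNP1 did (0.99), and 11 falling, as KLF6 did (-0.99). Of 11 other AP-1 genes 3 rose, JUND at 0.71 among them, and 3 fell, led by ATF2 (-1.08). Of 7 NR4A partners 2 rose and 3 fell, led by RCOR1 (-1.42), which belongs to a corepressor complex, and of 13 AP-1 targets 4 rose and 4 fell, with TIMP1 at 1.03 and CD44 at -1.15. Over all lists 22 genes rose and 45 fell, but with median-of-ratios scaling 36 rose and 36 fell.

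Between the candidate 42 ASOs in A549, the tested difference of ASO5 minus ASO3 was -0.77 for ZFP36 (adjusted p = 0.0150) and -0.67 for ZFP36L2, which bind AU-rich elements of short-lived transcripts, and -0.62 for the kinase gene SGK1. PLK2 was the 1 of 35 other immediate early genes that was higher with ASO5 (0.50). Of 13 AP-1 targets those that differed included CXCL8, lower with ASO5 (-1.18), and CD44 (0.90) and AREG (0.68), higher. SPRED3 was lower (-0.74) among 15 ERK feedback genes and MRTFA higher (0.56) among 30 upstream genes, and 0 of 11 other AP-1 genes and 0 of 7 NR4A partners passed by limma. In all 10 of 111 related genes passed, beside 10.7% of all genes (6 to 9 with a library left out and 21 with the block). Against control, without a test, 11 of 15 ERK feedback genes had a positive value with ASO3 and 14 of 15 with ASO5, with medians of 0.21 and 0.11 beside 0.02 and 0.02 for all genes. AP-1 targets had a negative value in 11 of 13 and 10 of 13, with medians of -0.31 and -0.15. Other AP-1 genes were positive in 9 of 11 with both ASOs and upstream genes in 20 of 30 with both. Other immediate early genes were positive in 23 of 35 with ASO3 and 17 with ASO5, and NR4A partners in 1 and 3 of 7. These counts describe the comparisons that chose the set.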

How the data were processed

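RNA was taken 24 h after transfection, per the labels' protocols, and prepared with the NEBNext Ultra RNA kit. The submitters' processing notes name kallisto, sleuth and hg38. Annotation and strandedness were not given in the sources used here. Each column of the deposited TPM table holds a length-normalized signal per gene name that the authors rescaled, per the values, since columns do not share a total. The authors' 8 deposited comparison tables give log2 fold changes and q-values, whose adjustment is not stated per the file headers, and group means.

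The 10 genes and the related lists were chosen with earlier results of these data known. limma 3.58.1 in R 4.3.3 (lmFit, contrasts.fit, eBayes with trend, two-sided) was run on log2(TPM + 0.5) over all genes averaging at least 1 TPM, per line (14740 genes in A549, 13774 in NCI-H460) and over both lines (14769), with all groups in the fit and no covariate. All 10 genes passed this filter in A549 and 9 in NCI-H460. P-values were adjusted by Benjamini-Hochberg over all genes and called under 0.05. The test was checked on simulated data. Folds on this scale understate changes of low genes. In the tested A549 contrasts same-numbered libraries deviated together (correlation of deviations from group means 0.128 to 0.564), so replicate number was also fitted as a block, whose values stand beside results it changes. From each list at most the 4 largest calls without overlap between groups could be named. Promoters were read from RefSeq (GRCh38.p14) and gene positions from GENCODE on GRCh38. A result for 1 listed gene is not reported here. NR4A2 was fitted in every comparison, but its test is not used where the libraries that chose it enter the fit, also where only the spread is taken from them.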

Additional observations from a re-analysis of the deposited data

How the results depend on the processing

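Of the 11 tested comparisons, the count of these genes past the threshold moved by over 1.5 times in 6 as settings changed, and no called value reversed. These counts include NR4A2, which the report gives without a test in comparisons whose fit uses the A549 control or candidate 42 libraries. For candidate 240 ASO3 minus control in A549 (2 genes) it was 4 with the replicate block, 1 with the same total in each library, without the trend or with the compared groups only, 0 without the filter on low values, and 0 to 1 when a library was left out. For candidate 240 ASO3 minus ASO1 (3 genes) it was 6 with the replicate block, 5 with A549 replicates 4 and 5 only, 0 without the filter, and 0 to 2 when a library was left out. For candidate 42 ASO5 minus ASO3 (1 gene) it was 2 with the compared groups only. For NCI-H460 candidate 42 ASO3 (4 genes) it was 7 with median-of-ratios scaling and 2 to 4 when a library was left out. For NCI-H460 candidate 240 ASO3 (1 gene) it was 0 without the filter, with the same total or without the trend, and 0 when any 1 library was left out. For the difference between lines in response to candidate 240 ASO3 (0 genes) it was 2 with the replicate block. The cause was not tested. The block changed no other call of these genes. In NCI-H460 same-numbered libraries did not deviate together (-0.016 to 0.082) and share only a number, and no block was fitted for the comparison of control libraries between the lines, which share no replicate number.

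Counts over all genes moved too, among them candidate 240 ASO3 in A549 (2036 called, 665 to 3696 over the settings that kept all libraries or replicates 4 and 5), the difference between lines in response to it (179 called, 1 to 535), and in NCI-H460, with a library left out, candidate 240 ASO3 (780 called, 76 to 392), candidate 42 ASO3 (6332 called, 3698 to 7475) and candidate 42 ASO5 (70 called, 0 each time). With 2 or 3 libraries per group and no read depth, differences of the size seen for NR4A2 in NCI-H460 lie near the threshold, and levels near 1 TPM, as for NR4A3 and FOSB, are compressed by the added 0.5.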

Other observations

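The authors' deposited table for candidate 42 ASO3 in NCI-H460 lists FOSB, which fell under the filter used above, at a log2 fold change of 1.87 with a q-value of 0.0122. It also lists EGR1 at 0.54 (q-value 0.0146), JUN at 0.41 (q-value 0.0174) and FOS at 0.05 (q-value 0.0471). Those genes did not pass in the main fit above. The authors' deposited table for candidate 240 ASO3 lists NR4A2 at 0.76 in A549 and at 0.86 (q-value 0.0305) in NCI-H460, and FOS in A549 at -0.95 (q-value 0.00485). The group means in the deposited NCI-H460 tables are on another scale than the TPM table, so only ratios from them are given.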
